A study of Mus musculus with 33 samples.

Results

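Cerebellar microglia were compared between the second postnatal week and young adulthood, using the libraries labelled cerebellum (Cb) at postnatal day 10 (P10) and day 42 (P42). The members were taken by region and age alone, which gave 4 libraries at P10 and 4 at P42, 8 of the 33 libraries of the series. In each of these groups replicates 1 and 2 were female and replicates 3 and 4 were male. All animals were untreated wildtype mice on the C57BL/6J background, kept free of specific pathogens and perfused before the cerebellum was taken. Cells were isolated by flow cytometry as live CD45+, CD11b+ and Gr1- cells, a gate that keeps myeloid cells and excludes most neutrophils and inflammatory monocytes, and total RNA was amplified for mRNA sequencing. The series also holds cerebellar microglia at P7 (3 libraries) and microglia of the corpus callosum (CC) and the cortex (Cx) at the same ages, and its title points to the developing white matter. Here the corpus callosum and the cortex served only to ask whether a change with age differed between regions.

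Microglia, the macrophages that live within brain tissue, enter the brain before birth, multiply during the first postnatal weeks and then turn over slowly. In developing white matter, which includes the cerebellar white matter, a transient population with an amoeboid shape takes up cell debris and supplies factors such as IGF1 to the oligodendrocyte lineage. In the adult, microglia keep up a set of homeostatic genes, among them receptors for CSF1, fractalkine and purines, through which they survey the tissue.

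The 8 libraries held between 28692397 and 58065163 reads assigned to genes, 34745241 to 58065163 at P10 and 28692397 to 45057646 at P42. Levels are given as CPM, which are counts of a gene scaled to a common library total (1000000 reads), after scaling by the trimmed mean of M-values (TMM). Among the 9335 genes used to compare libraries, the root mean square log2 distance was 0.396 to 0.563 between libraries of the same age and 0.798 to 0.892 between ages, so that no library of one age lay nearer to the other age. The 8 microglial marker genes fixed for the identity check (among them Csf1r, P2ry12 and Tmem119) summed to 56770 to 57787 CPM at P10 and 57305 to 62426 CPM at P42, and none of them was called. Mitochondrial genes took 0.839 to 0.879% of the reads at P10 and 0.442 to 0.517% at P42, and ribosomal protein genes 0.393 to 0.428% and 0.222 to 0.255%. These shares separated the ages without overlap, and their part in the results was not tested. Reads that fell on exons of more than 1 gene were discarded by the authors, and whether the counting used strand is not given in the sources used here, so genes that share exon bases with another are uncertain. Among the genes below these shares are 22.8% for Ube2c, 26.1% for Pdgfa, 21.8% for Tgm2, 34.4% for Ctsd and 17.8% for Csf1r, and others of 18.3% or more are given beside the gene. Smaller shares, at most 8.29% (Meg3), are not given. Replicate 3 at P42 held 170 reads on spike-in transcripts against at most 19 in the other 7. Bulk libraries sum over all sorted cells, so a change in the number of cells of a state and a change in the RNA per cell cannot be told apart. The labels do not tie the libraries to separate animals, and the p-values therefore measure the spread between these samples, which may be partly technical.

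A gene was called where the quasi-likelihood test of edgeR gave a Benjamini-Hochberg adjusted p of at most 0.01 over all 20917 genes tested and the log2 fold change was at least 1 in size. Fold changes are P42 over P10, so a positive value means a higher level at P42, and the value after ± is the standard error for a log2 fold change and the SD over libraries for a level in CPM (n = 4 for each age, 3 at P7). Between the ages 688 genes were called (3.29% of the genes tested), 240 higher at P42 (1.15%) and 448 lower (2.14%). The decreases were the larger changes, with a median absolute log2 fold change of 2.79 against 1.37 for the increases. A log2 fold change of at least 3 in size was fitted for 215 of the decreases and 12 of the increases. At P42, 81 of the genes called lower were at or under 3 reads in every library, which was used as the detection limit, and for these only a lower bound of the fold is given. Of 25 pathway lists, those of mitosis, DNA replication and lipid metabolism held most of the decreases among listed genes, while immediate-early genes, transcription factors and cytokine and pattern recognition genes held increases.

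**Figure D1:**
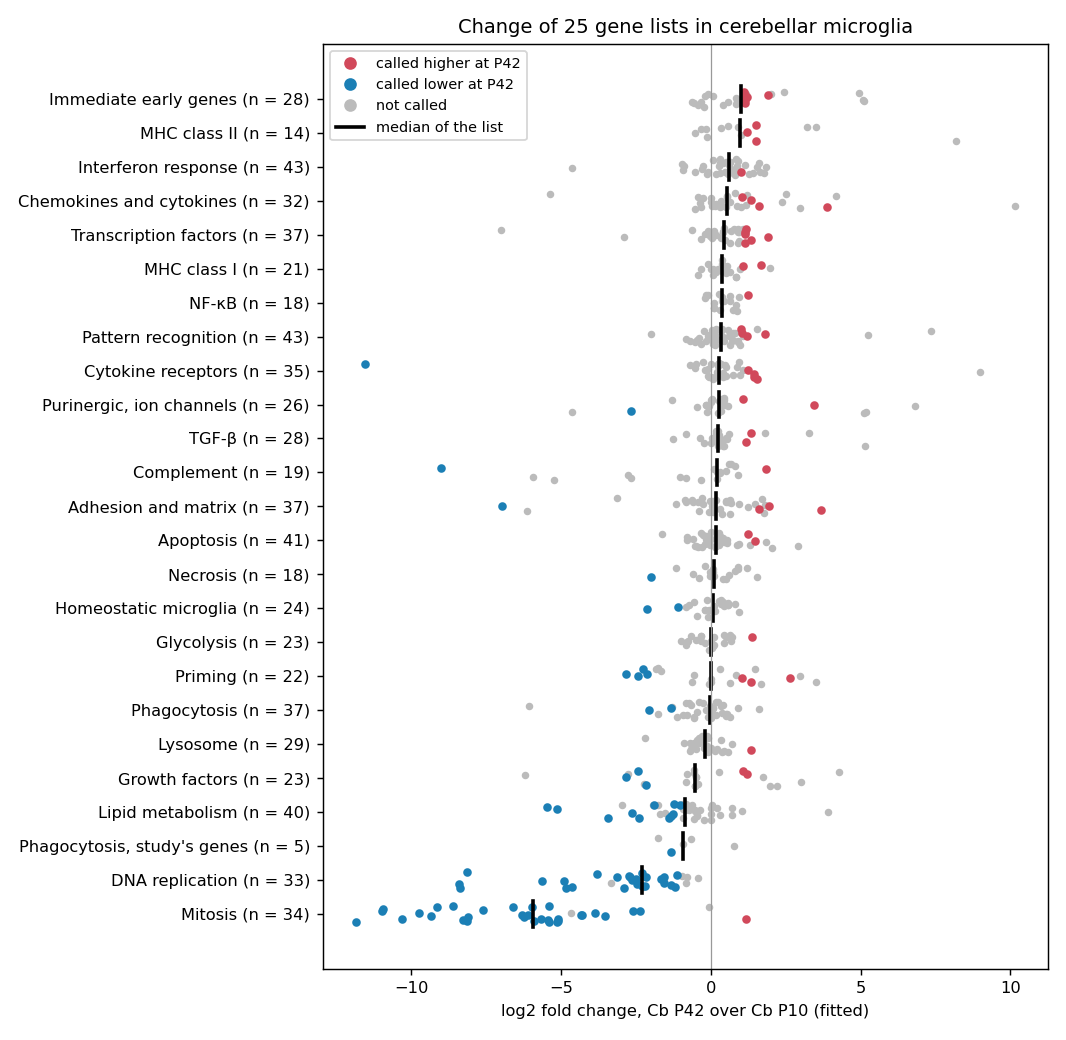
Fitted log2 fold change (P42 over P10, horizontal axis) of every tested member of 25 gene lists in cerebellar microglia, with 1 point per gene, coloured where the gene was called, a black bar at the median of the list and the number of members tested beside its name. The mitosis and DNA replication lists hold 31 and 25 members called lower, and the immediate-early list 8 members called higher.

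By the median of the list, the machinery of cell division had the largest decrease of the 25 lists. Of the 34 genes of the mitosis list 31 were lower at P42 and 1 was higher, with a median log2 fold change of -5.94 beside 0.0 over all genes tested. Called members made up 94.1% of the list, beside 3.29% of all genes tested called in either direction. Summed over the list, the level was 1304 to 1470 CPM at P10 and 130.3 to 147 CPM at P42. Of the 33 genes of the DNA replication list 25 were lower and none was higher (75.8% called lower, beside 2.14% of all genes tested, median -2.31). Of the 10 largest decreases by fitted fold change, among called genes with at least 10 CPM at one age and no overlap between the ages, Ube2c, Nuf2, Kif23 and Ttk are on the mitosis list, while Pbk, Hmmr, Kif18b and Nek2 are not on it. Pbk (chromosome 14, 65805837 to 65817822, GRCm38), a mitotic protein kinase, read 75.9, 71.4, 75.6 and 53.2 CPM in the 4 libraries at P10 and 0, 0, 0.0522 and 0 CPM at P42. It was at least 813-fold lower at P42 (adjusted p = 3.7e-12), with every P42 library at or under the detection limit. For Ube2c, the ubiquitin-conjugating enzyme that works with the anaphase-promoting complex, the level was 37.0, 34.5, 37.7 and 45.9 CPM at P10 and 0, 0, 0 and 0.0230 CPM at P42. That decrease was at least 457-fold (adjusted p = 2.4e-10). The kinetochore gene Nuf2 was at least 562-fold lower (adjusted p = 1.7e-12) and Hmmr, whose product binds the spindle, at least 527-fold (adjusted p = 3.8e-15). The mitotic kinesins Kif23 and Kif18b were lower by at least 248-fold and 204-fold. The kinases Nek2, of the centrosome, and Ttk, of the spindle checkpoint, were lower by at least 172-fold and 155-fold (adjusted p between 1.7e-12 and 6.0e-10 for these 4 genes).

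Not every division gene reached the detection limit. Top2a, which encodes DNA topoisomerase II alpha, read 162, 130.4, 107 and 163 CPM at P10 and 0.0689, 2.55, 0.365 and 0 CPM at P42 (log2 fold change -7.59 ± 0.63, adjusted p = 3.3e-10). Most of what remained came from Cb P42 replicate 2, and without it the log2 fold change of Top2a was -9.89. Cdk1, the kinase that drives entry into mitosis, went from 94.2 ± 10.9 CPM to 2.65 ± 1.24 CPM (log2 fold change -5.14 ± 0.54, adjusted p = 3.3e-08). Racgap1, which acts in cytokinesis, changed by -4.11 ± 0.42 (adjusted p = 1.7e-08) on the log2 scale and kept 4.38, 2.87, 4.83 and 5.39 CPM in the 4 libraries at P42. The spindle gene Dlgap5 changed by -4.10 ± 0.59 (adjusted p = 7.4e-06) and kept 0.448, 0, 2.51 and 0.460 CPM. The call of Dlgap5 did not hold in a fit of the 8 cerebellar libraries alone, and its log2 fold change was -5.59 without Cb P42 replicate 3. Pttg1, which encodes securin, the inhibitor of separase, was the exception of the mitosis list and rose from 27.1, 24.4, 30.7 and 25.3 CPM to 65.2, 51.0, 56.6 and 71.4 CPM (log2 fold change 1.19 ± 0.19, adjusted p = 3.4e-05). Both ages stayed apart for Pttg1, and its call held in each of the alternatives.

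Among replication genes, the licensing factor Cdc6 and Mcm10, which helps to start replication forks, were at least 94.1-fold and 102-fold lower (adjusted p = 4.1e-10 and 0.00021). Rrm2, the small subunit of the ribonucleotide reductase that makes deoxynucleotides, read 77.2, 98.1, 86.0 and 87.3 CPM at P10 and 0.0689, 1.04, 0 and 0 CPM at P42 (log2 fold change -8.36 ± 0.83, adjusted p = 1.0e-08). Cb P42 replicate 2 held nearly all of these reads, and the other P42 libraries were at or under the detection limit. The helicase subunits Mcm6 and Mcm3 changed less. Mcm6 went from 154 ± 23.9 to 20.5 ± 3.58 CPM (log2 fold change -2.91 ± 0.34, adjusted p = 2.2e-07). Mcm3 went from 165 ± 9.75 to 55.6 ± 9.52 CPM (log2 fold change -1.57 ± 0.20, adjusted p = 1.4e-06). At P7 the levels were on the side of P10 for all of these genes, with 159.9 CPM of Top2a, 113 CPM of Rrm2 and 168 CPM of Mcm6 on average in 3 libraries, and the step from P7 to P10 was not tested.

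**Figure D2:**
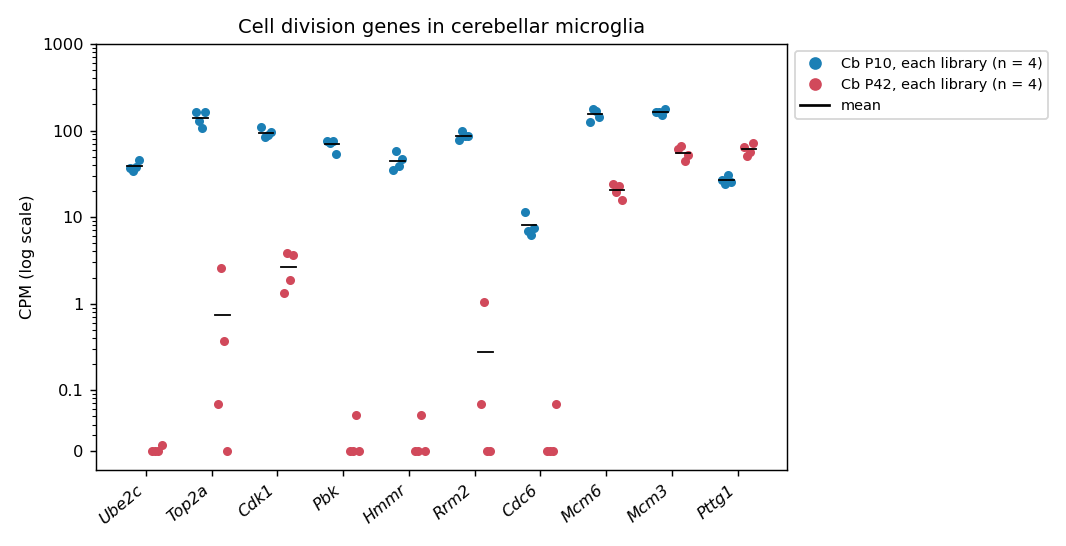
Level in CPM (log axis, with a separate tick for 0) of cell division genes in each cerebellar library at P10 and P42, points for libraries and lines for means. Every gene drawn is lower at P42 in all 4 libraries except Pttg1, which is higher in all 4.

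Genes of mitosis that move together often share short elements upstream of their start, the cell cycle homology region (CHR, read here as TTTGAA) and the CCAAT box, while genes of the start of S phase often carry an E2F element (read here as TTCCCGC). The promoters of 3 mitosis genes and of Rrm2, whose decreases are given above, are shown as examples only and do not represent their lists. The sequences are the 120 bases before the RefSeq transcription start on the strand of the gene, 5′ to 3′, on GRCm38.p6, with matches to CHR and CCAAT on either strand in capitals (TTCAAA and ATTGG are the same letters read on the other strand).
Ube2c, chr2:164769809-164769928, plus strand: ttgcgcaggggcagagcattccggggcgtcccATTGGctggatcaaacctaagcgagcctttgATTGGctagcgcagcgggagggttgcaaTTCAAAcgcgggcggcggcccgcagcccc
Cdk1, chr10:69352913-69353032, minus strand: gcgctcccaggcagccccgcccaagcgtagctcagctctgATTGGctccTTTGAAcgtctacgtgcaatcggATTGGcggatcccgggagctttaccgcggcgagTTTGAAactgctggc
Top2a, chr11:99024190-99024309, minus strand: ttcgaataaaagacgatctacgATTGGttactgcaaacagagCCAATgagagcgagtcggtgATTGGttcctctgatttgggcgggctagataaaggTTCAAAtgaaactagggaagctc
Rrm2, chr12:24708134-24708253, plus strand: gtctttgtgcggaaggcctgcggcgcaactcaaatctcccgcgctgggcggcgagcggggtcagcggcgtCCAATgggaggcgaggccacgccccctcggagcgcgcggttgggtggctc
Ube2c, Cdk1 and Top2a held both elements in these 120 bases, and Rrm2 held CCAAT without CHR. In the 250 bases before the start, both elements were found for 10 of the 28 mitosis genes with a RefSeq promoter (35.7%) and for 4 of the 27 replication genes (14.8%), against 4.94% of the 12094 tested genes that have one. CCAAT, with or without CHR, was found in 75.0% of the mitosis and 63.0% of the replication promoters against 39.9% of all. TTCCCGC was present in none of the mitosis promoters, in 5 of the 27 replication promoters (18.5%) and in 7.49% of all. A match describes the letters in this window only.

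Lipid metabolism was the other group with many decreases. Of its 40 members 11 were lower at P42 (27.5%, beside 2.14% of all genes tested) and none was higher (median -0.85). Apoe (chromosome 7, 19696109 to 19699188), which carries cholesterol and phospholipid between cells, read 10763, 10704, 12048 and 7873 CPM at P10 and 732, 592, 1164 and 1344 CPM at P42. The ages did not overlap and the level was 10.8-fold lower at P42 (log2 fold change -3.43 ± 0.22, adjusted p = 2.1e-12). Over the alternatives the adjusted p of Apoe ran from 2.9e-60 to 0.51, and limma-voom was the one that did not call it. Its neighbour Apoc1, a small apolipoprotein, went from 41.2, 31.6, 20.3 and 25.8 CPM to 1.55, 0.148, 0.418 and 0.644 CPM (log2 fold change -5.45 ± 0.51, adjusted p = 2.7e-09), or -6.15 on the log2 scale without Cb P42 replicate 1. At P7 these genes stood at 13587 and 90.0 CPM. Scarb1, the scavenger receptor for high-density lipoprotein, fell from 114 ± 13.9 to 45.9 ± 4.25 CPM (log2 fold change -1.32 ± 0.15, adjusted p = 1.8e-07).

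Enzymes that make fatty acids and sterols were among the lower genes. The desaturase Fads2 was near the detection limit at P42, at 1.92 to 4.96 CPM at P10 and 0 to 0.267 CPM at P42 (adjusted p = 0.00015, and 0.0138 with the 8 cerebellar libraries and the replicate block). Scd2, a stearoyl-CoA desaturase, went from 363 ± 46.4 to 68.4 ± 7.01 CPM (log2 fold change -2.41 ± 0.14, adjusted p = 6.0e-13). Sqle, the squalene epoxidase of cholesterol synthesis, went from 30.1 ± 8.31 to 4.84 ± 2.38 CPM (log2 fold change -2.64 ± 0.55, adjusted p = 0.00095). Hmgcs1, which acts before the rate-limiting step of that pathway, fell from 71.2 ± 17.9 to 30.6 ± 6.77 CPM (log2 fold change -1.22 ± 0.18, adjusted p = 1.5e-05). Scd2, Sqle, Hmgcs1 and the following 4 genes were chosen after their values were seen. Cyp51, Fads1, Fasn and Fabp5 were also called, with log2 fold changes of -1.25, -1.01, -1.40 and -1.89, and their calls rested on single libraries. Cyp51 was lost without Cb P10 replicate 4 or Cb P42 replicate 1 or 3 (log2 fold changes -1.11 to -1.23, adjusted p from 0.011 to 0.015). Fads1 was lost without Cb P10 replicate 4 or Cb P42 replicate 3 or 4 (log2 fold changes -0.93 to -0.98, adjusted p from 5.0e-06 to 1.3e-05). Fasn was lost without Cb P10 replicate 1 or 4 or Cb P42 replicate 1, 2 or 4 (log2 fold changes -1.28 to -1.47, adjusted p from 0.011 to 0.025). Fabp5 was lost without Cb P10 replicate 2 or 3 or Cb P42 replicate 1 or 4 (log2 fold changes -1.63 to -1.82, adjusted p from 0.0104 to 0.020). Lrp1, the large receptor that takes up APOE particles, and the cholesterol exporter Abca1 had lower levels at P42 under the fold needed for a call, with log2 fold changes of -0.91 (adjusted p = 0.00034) and -0.92 (adjusted p = 0.00044).

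Growth factors moved both ways, 3 members lower and 2 higher of 23 (21.7% called beside 3.29% of all genes tested, median -0.53). Igf1, which promotes the survival and maturation of oligodendrocytes and neurons, read 39.7, 40.5, 55.3 and 25.0 CPM at P10 and 11.1, 5.63, 6.60 and 6.24 CPM at P42. All P10 libraries were above all P42 libraries (log2 fold change -2.44 ± 0.45, adjusted p = 0.00021), and at P7 the 3 libraries had stood at 154, 173 and 197 CPM. Igfbp4, a binding protein of the insulin-like growth factors, fell from 264 ± 12.2 to 58.3 ± 7.67 CPM (log2 fold change -2.18 ± 0.15, adjusted p = 7.3e-12). Spp1 (osteopontin), a secreted matrix protein of the transient white matter population, read 202, 262, 324 and 102 CPM at P10 and 46.8, 37.8, 23.6 and 15.6 CPM at P42, after 2825, 3814 and 6228 CPM at P7. Its decrease (log2 fold change -2.85 ± 0.65, adjusted p = 0.0025) was called, but not without Cb P42 replicate 3 or 4 (log2 fold changes -2.62 to -2.74, adjusted p from 0.012 to 0.013) and not by limma-voom. For Spp1, 18.8% of its exon bases are shared with another gene model on the same strand. Higher at P42 were the platelet-derived growth factor genes. Pdgfa was at 11.7 ± 2.04 and 27.0 ± 2.19 CPM (log2 fold change 1.20 ± 0.28, adjusted p = 0.0028) and lost its call without Cb P10 replicate 1 or 4 (log2 fold changes 1.11 to 1.16, adjusted p from 0.012 to 0.015). Pdgfb was at 58.5 ± 10.6 and 122 ± 6.40 CPM (log2 fold change 1.06 ± 0.13, adjusted p = 4.1e-07) and lost its call without Cb P10 replicate 1 (log2 fold change 0.94, adjusted p = 4.2e-06). The most abundant members, Sparc and Grn (progranulin), changed by -0.84 (adjusted p = 5.3e-10) and -0.58 (adjusted p = 2.8e-08).

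In the homeostatic list 2 of 24 members were called, both lower, which is 8.33% of the list beside 3.29% of all genes tested (median 0.07). Crybb1 (chromosome 5, 112255815 to 112269585), a crystallin gene expressed by developing microglia, read 621, 562, 619 and 594 CPM at P10 and 133, 119.8, 142 and 155 CPM at P42. It was 4.36-fold lower with no overlap (log2 fold change -2.12 ± 0.10, adjusted p = 3.9e-15). Fcrls, an Fc receptor-like gene specific to mouse microglia, fell from 7529, 7489.8, 7431 and 7147 CPM to 3429, 3185, 3788 and 3501 CPM (log2 fold change -1.09 ± 0.08, adjusted p = 9.7e-12). The receptors that define the cell stayed within a factor of 2, with log2 fold changes of -0.10 (adjusted p = 0.36) for Csf1r, the receptor for CSF1 and IL-34, 0.27 (adjusted p = 0.0010) for the fractalkine receptor Cx3cr1 and -0.48 (adjusted p = 0.00022) for the ADP receptor P2ry12. For Tmem119 and Gpr34 the values were 0.58 (adjusted p = 7.4e-05) and 0.43 (adjusted p = 0.00081). Cst3 (cystatin C), an inhibitor of cysteine proteases, read 21760.3 ± 1412 CPM at P10 and 38122 ± 5201 CPM at P42 (log2 fold change 0.81 ± 0.09, adjusted p = 4.2e-08). Several of these differences passed the p threshold with a small size, and none except Crybb1 and Fcrls reached the fold needed.

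The list of genes of primed or amoeboid microglia held calls in both directions, with 4 members lower and 3 higher of 22 (median 0.00). That is 31.8% called beside 3.29% of all genes tested. Beside Igf1 and Spp1, Mrc1 and Gas7 were lower. Mrc1, the mannose receptor CD206, read 115, 122, 107 and 138 CPM at P10 and 33.2, 16.6, 30.6 and 20.6 CPM at P42 (log2 fold change -2.25 ± 0.49, adjusted p = 0.0015). Markers of border macrophages, a list that holds Mrc1, summed to 124 to 160 CPM at P10 and 38.2 to 50.0 CPM at P42, and Mrc1 was the one called member of 10 (10.0%). Most of that sum at P10 was Mrc1 itself. Of the 10 members 4 had a positive and 6 a negative log2 fold change (median -0.21). The part of border macrophages in the result was not tested. Gas7, whose product shapes the actin cytoskeleton, went from 13.5 ± 1.52 to 3.05 ± 2.07 CPM (log2 fold change -2.15 ± 0.47, adjusted p = 0.0015) and lost its call without Cb P42 replicate 2 (log2 fold change -1.90, adjusted p = 0.0101). With the 8 cerebellar libraries and the replicate block Gas7 was not called either. The 3 higher members were Lgals3, Clec7a and Tgfbi. Lgals3 (galectin-3) read 3.92, 3.44, 6.95 and 4.03 CPM at P10 and 20.3, 40.2, 32.6 and 20.4 CPM at P42 (log2 fold change 2.63 ± 0.67, adjusted p = 0.0065). Clec7a (dectin-1), a receptor for beta-glucan, went from 59.4 ± 11.7 to 121 ± 10.3 CPM (log2 fold change 1.03 ± 0.24, adjusted p = 0.0035). Both calls rested on single libraries. Lgals3 was not called without Cb P10 replicate 1, 2, 3 or 4 or Cb P42 replicate 2 or 3 (log2 fold changes 2.42 to 2.90, adjusted p from 0.011 to 0.029). Clec7a was not called without Cb P10 replicate 2 or 4 or Cb P42 replicate 3 (log2 fold changes 0.91 to 0.98, adjusted p from 0.014 to 0.022). Tgfbi, a matrix protein induced by TGF-beta, rose from 39.5 ± 4.90 to 99.6 ± 18.1 CPM (log2 fold change 1.33 ± 0.16, adjusted p = 4.0e-07) in every setting tried.

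Genes of the transient state were also followed from P7. Gpnmb, a transmembrane glycoprotein of phagocytes, stood at 141, 238 and 285 CPM in the 3 libraries at P7, at 17.5, 14.5, 16.8 and 5.83 CPM at P10 and at 1.90, 8.77, 3.39 and 1.31 CPM at P42. The step from P10 to P42 was not called (log2 fold change -1.83 ± 0.74, adjusted p = 0.10). The integrin Itgax (CD11c) read 32.3 ± 5.08, 10.4 ± 2.73 and 12.8 ± 1.34 CPM at the 3 ages, with a change of 0.30 ± 0.41 (adjusted p = 0.71) after P10. Lgals3 and Clec7a were at 31.1 ± 14.5 and 141 ± 12.7 CPM at P7, so both had their lowest mean at P10. Cybb, the catalytic subunit of the phagocyte NADPH oxidase, also had its lowest mean at P10, with 10.1, 24.6 and 14.7 CPM at P7, 1.59, 3.52, 1.54 and 1.24 CPM at P10 and 13.1, 24.7, 24.7 and 13.9 CPM at P42. Its rise after P10 was called (log2 fold change 3.27 ± 0.66, adjusted p = 0.00065) and is among the 10 largest increases within the limits of 10 CPM at one age and no overlap. Axl, a receptor tyrosine kinase for apoptotic cells, Anxa5, Gsn, F13a1 and Grk6 were not called, at -0.55 (adjusted p = 0.28), 0.84 (adjusted p = 0.0018), 0.77 (adjusted p = 0.21), -0.62 (adjusted p = 0.85) and -0.66 (adjusted p = 0.077) on the log2 scale.

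**Figure D3:**
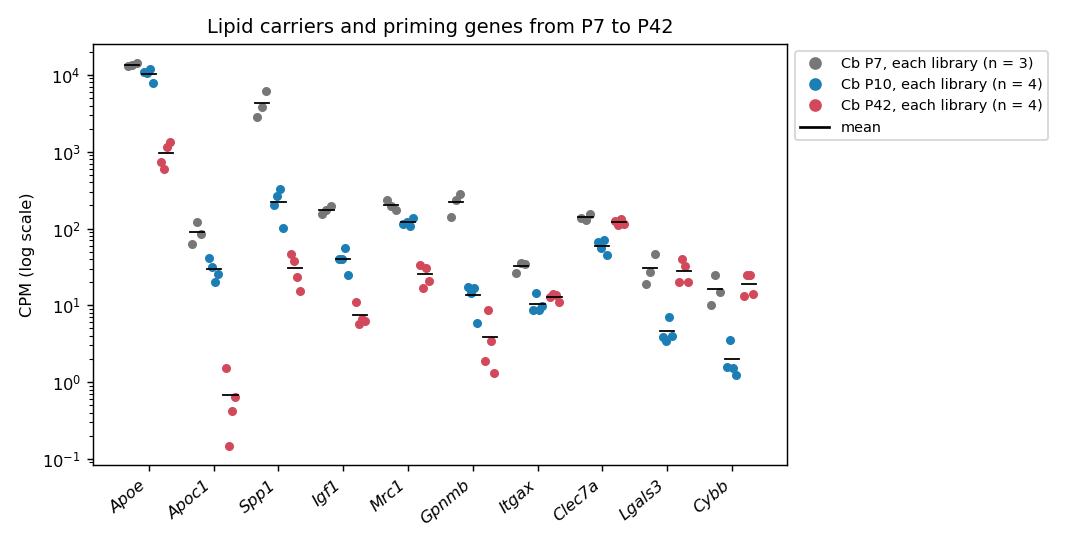
Level in CPM (log axis) of genes of the amoeboid or primed state and of lipid transport in each cerebellar library at P7 (3 libraries), P10 and P42 (4 libraries each), with lines for means. Apoe and Apoc1 are lowest at P42, while Clec7a, Lgals3 and Cybb have their lowest mean at P10.

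In the phagocytosis list, of genes for the uptake of debris, 2 of 37 members were lower, Scarb1 and Gas6, and none was higher (median -0.04). That is 5.41% called beside 3.29% of all genes tested. Gas6, the bridging ligand that couples dying cells to AXL and MERTK, read 689.9, 657, 597 and 648 CPM at P10 and 158, 128, 148 and 180.0 CPM at P42 (log2 fold change -2.07 ± 0.13, adjusted p = 1.7e-12). The fatty acid receptor Cd36 was low and spread widely, at 0 to 8.50 CPM at P10 and 0 to 4.53 CPM at P42, and was not called. Among 29 lysosomal genes Ctsc was the one called (3.45%). Ctsc (cathepsin C), a protease that activates serine proteases, rose from 1121, 1202, 1123 and 1234 CPM to 2823, 2786, 3157 and 3136 CPM (log2 fold change 1.35 ± 0.10, adjusted p = 2.4e-11). The abundant cathepsins Ctsd and Ctss were at 0.36 (adjusted p = 0.00032) and 0.58 (adjusted p = 1.1e-05). Sgsh, a lysosomal sulfatase of heparan sulfate breakdown outside that list, went from 3.84, 4.62, 5.44 and 5.27 to 24.0, 37.5, 25.2 and 39.7 CPM (log2 fold change 2.72 ± 0.33, adjusted p = 4.2e-07) and is one of the 10 largest increases within the same limits, with 21.6% of its exon bases shared with Card14.

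The pattern recognition list had 4 of 43 members higher and none lower (median 0.35). That is 9.30%, where 1.15% of all genes tested were called higher. Cd14, the coreceptor for lipopolysaccharide, read 391, 335, 427 and 390.0 CPM at P10 and 1410.4, 1368, 1309 and 1256 CPM at P42. It was 3.46-fold higher with wide separation of the ages (log2 fold change 1.79 ± 0.11, adjusted p = 9.6e-13). Tmem173, which encodes the cytosolic DNA sensor adaptor STING, rose from 642 ± 35.2 to 1472 ± 154 CPM (log2 fold change 1.20 ± 0.09, adjusted p = 7.0e-11). Irak2, a kinase of Toll-like receptor signalling, was just at the fold needed (log2 fold change 1.00 ± 0.18, adjusted p = 0.00016) and lost its call without Cb P10 replicate 3 or 4 or Cb P42 replicate 1 (log2 fold changes 0.90 to 0.98, adjusted p from 0.00073 to 0.0014). Tlr2 changed by 0.64 (adjusted p = 0.00099) and was not called. Nfkbia, the inhibitor that NF-kappaB induces, was the 1 called member of 18 in the NF-kappaB list (5.56%, where 1.15% of all genes tested were called higher). The median of that list was 0.38, with 15 members positive and 3 negative. Nfkbia went from 79.1 ± 9.39 to 186 ± 21.7 CPM (log2 fold change 1.23 ± 0.13, adjusted p = 6.4e-08).

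In the complement list C5ar1 was higher and Cfb lower of 19 genes (10.5% called beside 3.29% of all genes tested). C5ar1, the receptor for the anaphylatoxin C5a, read 157, 162, 157 and 139.7 CPM at P10 and 479, 559, 577 and 598 CPM at P42 (log2 fold change 1.84 ± 0.12, adjusted p = 2.0e-12). Factor B (Cfb) was at 1.51 to 2.28 CPM at P10 and at 0 in every P42 library, at least 21.2-fold lower (adjusted p = 0.00017, not called with the 8 cerebellar libraries and the replicate block), but 79.5% of its exon bases are shared with another gene model on the same strand and reads there were discarded. The C1q genes C1qb and C1qc, abundant at both ages, changed by 0.29 (adjusted p = 0.016) and 0.20 (adjusted p = 0.15).

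Antigen presentation genes were higher or not called. Of 14 class II genes 3 were higher and none lower (21.4%, median 0.96), and of 21 class I genes 2 were higher (9.52%, median 0.38), where 1.15% of all genes tested were called higher. H2-Ab1, a chain of the classical class II molecule, read 17.3, 11.5, 13.9 and 15.1 CPM at P10 and 48.6, 31.9, 28.1 and 56.8 CPM at P42 (log2 fold change 1.52 ± 0.25, adjusted p = 4.4e-05). H2-DMa, which helps to load peptide, went from 209.7 ± 22.6 to 481 ± 44.1 CPM (log2 fold change 1.20 ± 0.11, adjusted p = 9.7e-10). H2-Ob, which restrains that step, went from 31.5 ± 3.57 to 90.3 ± 18.8 CPM (log2 fold change 1.52 ± 0.15, adjusted p = 1.3e-08). In class I, the non-classical H2-T23 (Qa-1) rose from 79.1, 74.3, 83.5 and 87.6 CPM to 223, 240.3, 305 and 274 CPM (log2 fold change 1.68 ± 0.11, adjusted p = 3.7e-12). H2-K1 rose from 335 ± 16.2 to 700.1 ± 93.9 CPM (log2 fold change 1.06 ± 0.10, adjusted p = 8.0e-09) and fell short of the fold without Cb P42 replicate 3 (log2 fold change 0.999, adjusted p = 8.3e-08). The shared light chain B2m changed by -0.34 (adjusted p = 0.016). Class I genes are near copies of each other, and reads that map to several places were discarded. Of 43 interferon genes 1 was called, higher at P42 (2.33%, where 1.15% of all genes tested were called higher, median 0.59). By sign alone 34 members were positive and 9 negative, and the list summed to 5944 to 6077 CPM at P10 and 7939 to 8608 CPM at P42. The called gene was Irf1, a transcription factor of the interferon response, at 46.7 ± 4.73 and 94.8 ± 14.9 CPM (log2 fold change 1.02 ± 0.17, adjusted p = 4.8e-05). Irf1 fell short of a call without Cb P10 replicate 2 or 3 or Cb P42 replicate 3 (log2 fold changes 0.91 to 0.98, adjusted p from 0.00047 to 0.00057). Ifngr1, a chain of the interferon-gamma receptor, changed by 0.50 (adjusted p = 0.00015).

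Ligands of the chemokine and cytokine list were higher in 4 of 32 cases and lower in none (12.5% called higher beside 1.15% of all genes tested, median 0.53). Tnfsf13b (BAFF), a survival factor of B cells, read 3.84, 3.37, 4.92 and 4.60 CPM at P10 and 52.1, 57.5, 77.3 and 58.5 CPM at P42. It was 14.7-fold higher (log2 fold change 3.88 ± 0.63, adjusted p = 4.7e-05), the second largest increase among called genes with at least 10 CPM at one age and no overlap. Cxcl16, a membrane-bound chemokine, went from 42.7 ± 4.26 to 109 ± 10.9 CPM (log2 fold change 1.36 ± 0.17, adjusted p = 6.8e-07), with 18.3% of its exon bases shared with Zmynd15 on the other strand. Ccl4, a chemokine, read 41.9, 43.3, 39.1 and 25.9 CPM at P10 and 106, 134, 111 and 109 CPM at P42 (log2 fold change 1.61 ± 0.38, adjusted p = 0.0037). It lost its call without Cb P10 replicate 3 or 4 or Cb P42 replicate 2 (log2 fold changes 1.47 to 1.63, adjusted p from 0.011 to 0.020). Il15 was called too (log2 fold change 1.05 ± 0.23, adjusted p = 0.0018) and lost its call without Cb P10 replicate 2 or 4 or Cb P42 replicate 4 (log2 fold changes 0.85 to 0.999, adjusted p from 0.0073 to 0.013). The abundant members Ccl6 and Ccl9 were not called, at -0.38 (adjusted p = 0.010) and -0.33 (adjusted p = 0.096).

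Among 35 receptors for cytokines 4 were higher and 1 was lower (14.3% called beside 3.29% of all genes tested, median 0.28). Il17ra, the shared chain of interleukin-17 receptors, read 127, 148, 112 and 129 CPM at P10 and 346, 341, 339 and 369 CPM at P42 (log2 fold change 1.43 ± 0.12, adjusted p = 7.6e-10). Cmklr1, the chemerin receptor, went up from 24.7 ± 3.50 to 66.5 ± 11.3 CPM (log2 fold change 1.43 ± 0.14, adjusted p = 4.1e-09). Acvrl1, a receptor of the TGF-beta family chosen after its values were seen, went up from 33.1 ± 4.65 to 77.5 ± 7.61 CPM (log2 fold change 1.23 ± 0.19, adjusted p = 2.0e-05). Ccrl2, which presents chemerin, was called at 1.53 ± 0.40 (adjusted p = 0.0086) and lost its call without Cb P10 replicate 1, 3 or 4 or Cb P42 replicate 2, 3 or 4 (log2 fold changes 1.41 to 1.53, adjusted p from 0.018 to 0.037). Cxcr2, a receptor for neutrophil-attracting chemokines, was lower. Its level was 11.3, 16.9, 6.23 and 7.72 CPM at P10 and 0 in all 4 libraries at P42, at least 124-fold lower (adjusted p = 3.3e-10). Markers of neutrophils summed to 0.0872 to 3.51 CPM at P10 and 0 to 0.574 CPM at P42 and none of 4 was called. Their part in the level of Cxcr2 was not tested.

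Purinergic genes and ion channels were mixed, with 2 higher and 1 lower of 26 (11.5% called beside 3.29% of all genes tested, median 0.26). Kcnj2, the inward rectifier potassium channel Kir2.1, read 20.6, 7.25, 15.7 and 14.1 CPM at P10 and 176, 162, 145 and 137 CPM at P42. It was 10.8-fold higher (log2 fold change 3.43 ± 0.41, adjusted p = 3.9e-07), the fourth largest increase within the limits of 10 CPM at one age and no overlap. The ATP-gated channels moved apart. P2rx4 rose from 92.2 ± 6.74 to 193 ± 19.8 CPM (log2 fold change 1.06 ± 0.11, adjusted p = 3.7e-08), while P2rx1 fell from 70.3 ± 8.51 to 11.1 ± 2.64 CPM (log2 fold change -2.67 ± 0.27, adjusted p = 1.8e-08). In the adhesion and matrix list 3 of 37 were higher and 1 lower (10.8% called, median 0.18). Tgm2, a transglutaminase that cross-links matrix, read 2.30, 0.837, 2.76 and 0.749 CPM at P10 and 13.6, 23.6, 18.4 and 29.1 CPM at P42 (log2 fold change 3.69 ± 0.82, adjusted p = 0.0023). It was not called without Cb P10 replicate 2 or 4 (log2 fold changes 3.44 to 3.45, adjusted p = 0.013). The collagen Col27a1 went from 7.80 ± 2.64 to 30.1 ± 3.26 CPM (log2 fold change 1.95 ± 0.28, adjusted p = 7.3e-06). Mmp14, a membrane-bound matrix metalloproteinase, went from 21.8 ± 2.73 to 67.0 ± 5.24 CPM (log2 fold change 1.62 ± 0.21, adjusted p = 1.8e-06). Itgal, the alpha chain of LFA-1, was lower, at 3.32 to 8.23 CPM at P10 and 0 to 0.148 CPM at P42 (adjusted p = 0.0031). It was lost without Cb P42 replicate 1, 3 or 4 (log2 fold changes -6.53 to -6.63, adjusted p = 0.015). Without Cb P42 replicate 2 the fitted log2 fold change of Itgal went from -6.97 to -10.44 (adjusted p = 0.0040). The abundant tetraspanin Cd81 and the selectin ligand Selplg changed by 0.63 (adjusted p = 2.2e-08) and 0.95 (adjusted p = 1.1e-09).

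The other large increases fell outside the lists. Among called genes with at least 10 CPM at one age and no overlap, the largest was that of 1810011O10Rik (chromosome 8, 24437180 to 24438984), at 1.21, 1.31, 0.204 and 1.83 CPM at P10 and 24.8, 29.6, 28.6 and 32.7 CPM at P42 (log2 fold change 4.66 ± 0.79, adjusted p = 8.4e-05), with 18.7% of its exon bases shared with a gene on the other strand. Apbb1, an adaptor that binds the amyloid precursor protein, read 1.44 ± 0.473 and 10.7 ± 2.65 CPM (log2 fold change 2.90 ± 0.61, adjusted p = 0.0011). The histone gene Hist2h4 and the predicted gene Gm44860 complete the 10, at 2.79 ± 0.60 (adjusted p = 0.0014) and 2.69 ± 0.51 (adjusted p = 0.00034). Hist2h4 was lost without Cb P42 replicate 2 (log2 fold change 2.31, adjusted p = 0.012).

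**Figure D4:**
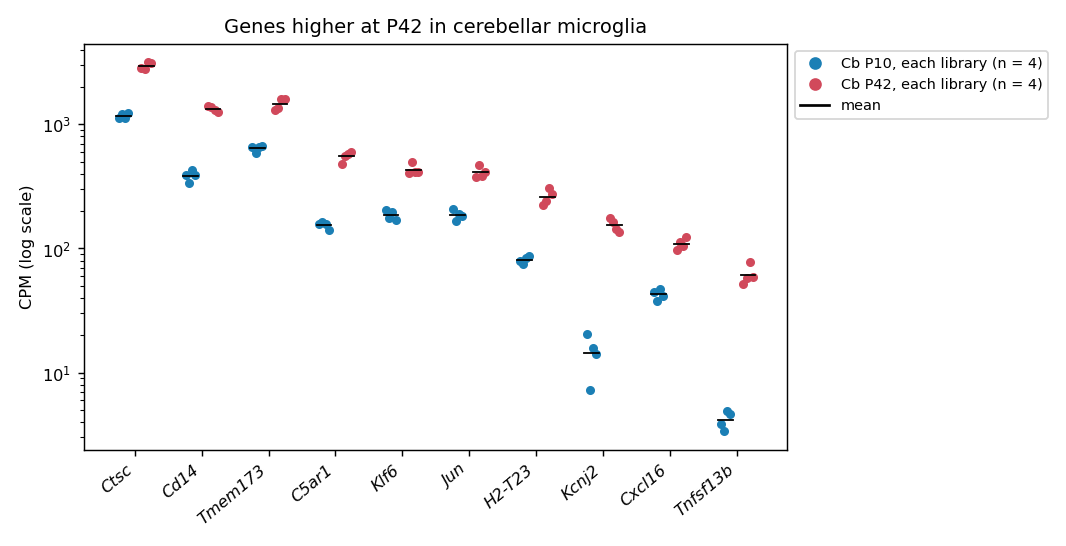
Level in CPM (log axis) of 10 genes called higher at P42 in each cerebellar library at P10 and P42, with lines for means. In all 10 genes every P42 library lies above every P10 library.

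Immediate-early genes, the first to respond to many stimuli, were higher in 8 of 28 cases and lower in none (28.6% called higher beside 1.15% of all genes tested, median 1.00, or 0.89 where undetected genes take the bound of their fold). Jun and Fos, partners of the AP-1 factor, read 208, 166, 189 and 183 CPM and 2.82, 2.96, 3.64 and 2.53 CPM at P10. At P42 the levels were 375, 473, 383 and 412 CPM for Jun (log2 fold change 1.14 ± 0.12, adjusted p = 3.0e-08) and 9.68, 17.2, 9.19 and 9.18 CPM for Fos (log2 fold change 1.92 ± 0.39, adjusted p = 0.00072). No P42 library fell into the P10 range for Jun. Klf6 went from 188 ± 16.5 to 432 ± 46.4 CPM (log2 fold change 1.20 ± 0.11, adjusted p = 8.9e-10). Ier2 went from 25.1 ± 2.05 to 55.7 ± 12.0 CPM (log2 fold change 1.15 ± 0.27, adjusted p = 0.0036). Junb, Atf3, Btg2 and Myc, chosen after their values were seen, were called at 1.10 (adjusted p = 0.00014), 1.09 (adjusted p = 0.0029), 1.10 (adjusted p = 3.6e-08) and 1.14 (adjusted p = 7.4e-05). Ier2 lost its call without Cb P10 replicate 2, 3 or 4 or Cb P42 replicate 2 or 3 (log2 fold changes 1.04 to 1.17, adjusted p from 0.0102 to 0.018). Junb lost it without Cb P42 replicate 4 (log2 fold change 0.99, adjusted p = 0.0011). Atf3 lost it without Cb P10 replicate 2 or 4 or Cb P42 replicate 2 or 3 (log2 fold changes 0.93 to 1.08, adjusted p from 0.011 to 0.018).

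Transcription factors were higher in 6 of 37 cases and lower in none (16.2% called higher beside 1.15% of all genes tested, median 0.44), Jun and Fos included. Cebpa, a myeloid factor, went from 49.4 ± 6.07 to 108 ± 12.3 CPM (log2 fold change 1.13 ± 0.13, adjusted p = 7.9e-08), and was chosen after its values were seen. Batf3 and Tgif1, a repressor in TGF-beta signalling, were called at 1.34 ± 0.29 (adjusted p = 0.0013) and 1.17 ± 0.20 (adjusted p = 6.5e-05), and Tgif1 and Tgfbi were the 2 called of 28 genes of the TGF-beta list (7.14%). Irf8, needed for microglial identity, was at 0.90 (adjusted p = 6.1e-09) and not called.

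The lists of apoptosis (4.88%, all higher), necrotic death (5.56%, all lower) and glycolysis (4.35%, all higher) held 1 or 2 called members each. Of all genes tested 1.15% were called higher and 2.14% lower. Of 41 apoptosis genes 2 were higher (median 0.18), Bcl2a1a, a survival factor, at 1.49 ± 0.30 (adjusted p = 0.00075) and Bbc3 (PUMA), a death factor, at 1.22 ± 0.27 (adjusted p = 0.0018). Bbc3 was not called with the 8 cerebellar libraries and the replicate block. Bcl2a1a has near-identical copies, so its level is uncertain, and the abundant survival gene Mcl1 changed by 0.43 (adjusted p = 0.00016). Of 18 genes of necrotic death 1 was lower, Ripk3, the kinase of necroptosis, from 20.5, 17.3, 20.2 and 15.4 CPM to 6.72, 5.57, 5.27 and 0.967 CPM (log2 fold change -1.99 ± 0.41, adjusted p = 0.00078). Ripk3 was not called in a fit of the 8 cerebellar libraries alone. Of 23 glycolysis genes 1 was higher, Pfkfb3, which stimulates glycolysis, from 49.2 ± 3.63 to 128 ± 12.6 CPM (log2 fold change 1.37 ± 0.15, adjusted p = 6.5e-08). Ldhb, a lactate dehydrogenase subunit, changed by -0.99 ± 0.10 (adjusted p = 8.3e-09), just under the size needed, and the fructose transporter Slc2a5 changed by 0.10 (adjusted p = 0.65).

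Genes of other cell types were present at low levels and some moved with age. Red cell markers were higher at P10, at 99.3 to 128 CPM summed over 5 genes against at most 0.414 CPM at P42, and all 5 were called lower. Hbb-bs, a beta-globin gene and one of the 10 largest decreases, read 63.7, 76.2, 65.1 and 71.6 CPM at P10 and 0, 0.0889, 0 and 0 CPM at P42, at least 814-fold lower (adjusted p = 0.00065). Endothelial markers summed to 51.1 to 74.5 CPM at P10 and 4.86 to 14.4 CPM at P42, with 2 of 4 called lower (50.0%). Of these, Pecam1 fell from 72.2, 64.0, 50.0 and 66.1 CPM to 14.3, 7.29, 4.86 and 9.99 CPM (log2 fold change -2.80 ± 0.33, adjusted p = 2.0e-07). Nearly all of the endothelial sum was Pecam1 at both ages. Cldn5, which defines brain endothelium, was at 0 in all 8 libraries. Cdh5 was called lower at 0.611 to 4.57 and 0 to 0.356 CPM (adjusted p = 0.0065). It lost its call without Cb P10 replicate 4 or Cb P42 replicate 1, 3 or 4 (log2 fold changes -2.62 to -3.66, adjusted p from 0.015 to 0.047). Monocyte markers summed to 15.0 to 20.1 CPM and 6.43 to 10.5 CPM, with Plac8 lower at 9.27 ± 1.67 and 0.435 ± 0.209 CPM (log2 fold change -4.40 ± 0.88, adjusted p = 0.00059) and Ly6c2 at 0. Plac8 was the 1 called member of 5 tested (20.0%), and 2 members had a positive and 2 a negative log2 fold change (median 0.0). Markers of oligodendrocytes (227 to 259 and 203 to 225 CPM), astrocytes and Bergmann glia (107 to 152 and 141 to 154 CPM) and cerebellar granule cells (1.76 to 4.97 and 0.667 to 2.55 CPM) gave no called member. By sign, 6 of 7, 6 of 7 and 6 of 8 members of these lists were negative (median log2 fold changes -0.875, -2.27 and -1.33). Of the members 3, 4 and 8 were below 10 CPM at both ages. Markers of T, B and NK cells summed to 132 to 149.5 CPM at P10 and 79.9 to 88.4 CPM at P42, with none of 4 called. Nearly all of that sum was Cd79b, while Cd3e did not pass the filter on low counts. The neuron list summed to 4.93 to 13.4 CPM at P10 and 6.70 to 11.9 CPM at P42, with 1 of 7 called lower (14.3%, beside 2.14% of all genes tested). That was the long non-coding RNA Meg3, at 1.56, 1.33, 3.58 and 1.52 CPM at P10 and 0 in all 4 libraries at P42, at least 23.5-fold lower (adjusted p = 2.8e-06). It was not called with the 8 cerebellar libraries and the replicate block. The part of these cells in the other results was not tested.

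The question of what differed from the other regions was put to the change itself, by testing the log2 fold change in the cerebellum minus that in the cortex or the corpus callosum, which share no library. In the cortex 807 genes were called between the same ages (3.86%) and in the corpus callosum 1043 (4.99%). Of the 448 genes lower in cerebellar microglia, 304 (67.9%, and 52.5% of the cortical decreases) were also lower in the cortex and 322 (71.9%, and 49.5% of the callosal ones) in the corpus callosum. For the 240 increases these were 102 (42.5% and 44.7%) and 128 (53.3% and 32.6%). One gene was called in the opposite direction in each region, Fxyd5 in the cortex and B430010I23Rik in the corpus callosum. The change itself differed from the cortex in 54 genes (0.258%) and from the corpus callosum in 26 (0.124%). These counts depended on the tool and on single libraries, with 166 and 269 by DESeq2, 32 against the cortex without Cb P10 replicate 3 and 15 against the corpus callosum without Cb P10 replicate 4. Mitosis was lower in all 3 regions, with 32 of 34 members called lower in the cortex and 32 in the corpus callosum, and 1 member of that list, Mki67, the gene of the proliferation marker Ki-67, was called for a difference between the cerebellum and the cortex (5.50 ± 1.14, adjusted p = 0.0093). This call was lost in 17 of 23 alternatives, among them limma-voom, the sex covariate and the replicate block. Its level at P42 was 0.207 to 2.30 CPM in the cerebellum and 0 to 0.0528 CPM in the cortex, and its decrease was called in both (log2 fold change -6.10 ± 0.59, adjusted p = 7.2e-09 in the cerebellum, or -7.75 without Cb P42 replicate 3).

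Crybb1 fell in the cerebellum beyond the cortex, where it stood at 675 ± 32.2 CPM at P10 and 444 ± 68.7 CPM at P42, a difference in log2 fold change of -1.52 ± 0.14 (adjusted p = 6.0e-08). It was not called for a difference from the corpus callosum. Ccl6 and Ccl9 rose in the cortex (1.13 and 1.19) and not in the cerebellum, with differences of -1.50 ± 0.14 (adjusted p = 9.0e-08) and -1.51 ± 0.18 (adjusted p = 7.7e-06). Scd2 fell further in the cerebellum than in the cortex (-1.32), by -1.09 ± 0.19 (adjusted p = 0.0025). Hmgcs1 fell in the cerebellum and had a log2 fold change of 0.72 in the corpus callosum, under the size needed for a call, a difference of -1.94 ± 0.26 (adjusted p = 0.00034). The fructose transporter Slc2a5 rose in the corpus callosum (1.22) and differed from it by -1.12 ± 0.16 (adjusted p = 0.00052). All of these calls held without each library in turn.

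Pecam1 and Upk1b, a uroplakin, were among 5 genes called for a difference from both regions. Pecam1 stood at 44.5 ± 5.36 and 48.2 ± 18.9 CPM in the cortex and at 37.1 ± 10.6 and 32.6 ± 15.3 CPM in the corpus callosum, with differences of -2.91 ± 0.44 (adjusted p = 0.00031) and -2.61 ± 0.44 (adjusted p = 0.0025). Upk1b read 49.2, 49.0, 34.0 and 60.4 CPM in the cerebellum at P10 and 40.1, 21.7, 33.5 and 50.4 CPM at P42, where the change was not called. In the cortex it went from 27.0 ± 10.3 to 240.2 ± 34.9 CPM and in the corpus callosum from 17.8 ± 5.19 to 166 ± 35.9 CPM, and the differences were -3.56 ± 0.46 (adjusted p = 3.1e-05) and -3.62 ± 0.47 (adjusted p = 0.00032). The cerebellar libraries at P42 stayed below every P42 library of both other regions.

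Of the 34 mitosis genes 1 was called for a difference from the cortex and 0 from the corpus callosum, and of the 33 DNA replication genes 0 from either. Single division genes outside these lists were called, each against 1 region. Racgap1 read 2.87 to 5.39 CPM in the cerebellum at P42 and 0.0358 to 0.470 CPM in the corpus callosum (difference 4.63 ± 0.70, adjusted p = 0.00093, and from 4.27 to 6.26, adjusted p up to 0.0035 without 1 library). The phosphatase Cdc25b read 0.620 to 4.83 CPM and 0 to 0.0336 CPM (difference 8.67 ± 1.26, adjusted p = 0.00052, and from 7.99 to 10.51, adjusted p up to 0.0022 without 1 library), with every callosal P42 library at or under the detection limit. Dlgap5 read 0 to 2.51 CPM against 0 to 0.0351 CPM in the cortex (difference 6.99 ± 1.15, adjusted p = 0.0010). The difference for Dlgap5 was not called by limma-voom and ran from 5.50 to 8.67 without 1 library. The kinetochore gene Casc5 and the nuclease Dna2 also differed from the cortex, by 5.54 ± 1.08 (adjusted p = 0.0059) and 5.74 ± 1.16 (adjusted p = 0.0080). Without 1 library they ran from 4.14 to 6.49, adjusted p up to 0.038 for Casc5 and from 5.33 to 6.81, adjusted p up to 0.026 for Dna2. These fitted differences rest on levels near 0 CPM at P42 in the other region, so their sizes are not exact. For Cdc25b in the corpus callosum and Dlgap5 in the cortex every P42 library was at or under the detection limit. B430010I23Rik rose in the cerebellum, from 4.90 ± 0.723 to 13.4 ± 2.69 CPM (log2 fold change 1.45 ± 0.33, adjusted p = 0.0025), and fell in the corpus callosum (-1.37), a difference of 2.82 ± 0.47 (adjusted p = 0.0025). Its rise lost the call without Cb P10 replicate 3 or 4 or Cb P42 replicate 2 (log2 fold changes 1.33 to 1.39, adjusted p from 0.011 to 0.012). Of its exon bases 18.7% are shared with Mtus1 on the other strand.

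Other differences depended on single libraries or on the model. Against the cortex, the call for Tlr2 (1.07 ± 0.19, adjusted p = 0.0021) was lost without Cx P42 replicate 4, that for Ldhb (-1.02 ± 0.14, adjusted p = 4.4e-05) without Cx P42 replicate 1 or 2 or with limma-voom, and that for Il17ra (1.04 ± 0.17, adjusted p = 0.0011) without Cb P10 replicate 1 or 3, Cx P10 replicate 1 or Cx P42 replicate 4. Without 1 library these differences ran from 0.99 to 1.18, adjusted p up to 0.0099 for Tlr2, from -1.10 to -0.95, adjusted p up to 0.00017 for Ldhb and from 0.97 to 1.10, adjusted p up to 0.0055 for Il17ra. Leaving out 1 of the 16 libraries compared in turn ended further calls at least 8 times. These were Nbl1 (-3.00 ± 0.57, adjusted p = 0.0053), Pde2a (-3.93 ± 0.80, adjusted p = 0.0080), Tgfbi (1.18 ± 0.23, adjusted p = 0.0053), Igfbp4 (1.07 ± 0.20, adjusted p = 0.0053), Abca1 (-1.24 ± 0.25, adjusted p = 0.0080), Cybb (4.32 ± 0.89, adjusted p = 0.0093) and Bbc3 (1.83 ± 0.38, adjusted p = 0.0099) against the cortex, together with Casc5, Dna2 and Mki67 above, and Il7r (-2.55 ± 0.48, adjusted p = 0.0078) against the corpus callosum. Their differences kept their sign each time, with adjusted p up to 0.0895. With the replicate block over all 33 libraries the calls of Casc5, Bbc3, Pde2a and Mki67 against the cortex were also lost. Limma-voom did not call Casc5, Abca1, Igfbp4, Pde2a and Mki67 against the cortex or Il7r against the corpus callosum. With sex as a covariate Cybb, Pde2a, Mki67 and Il7r were lost, and with no filter beyond genes without reads Bbc3, Nbl1 and Mki67.

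**Figure D5:**
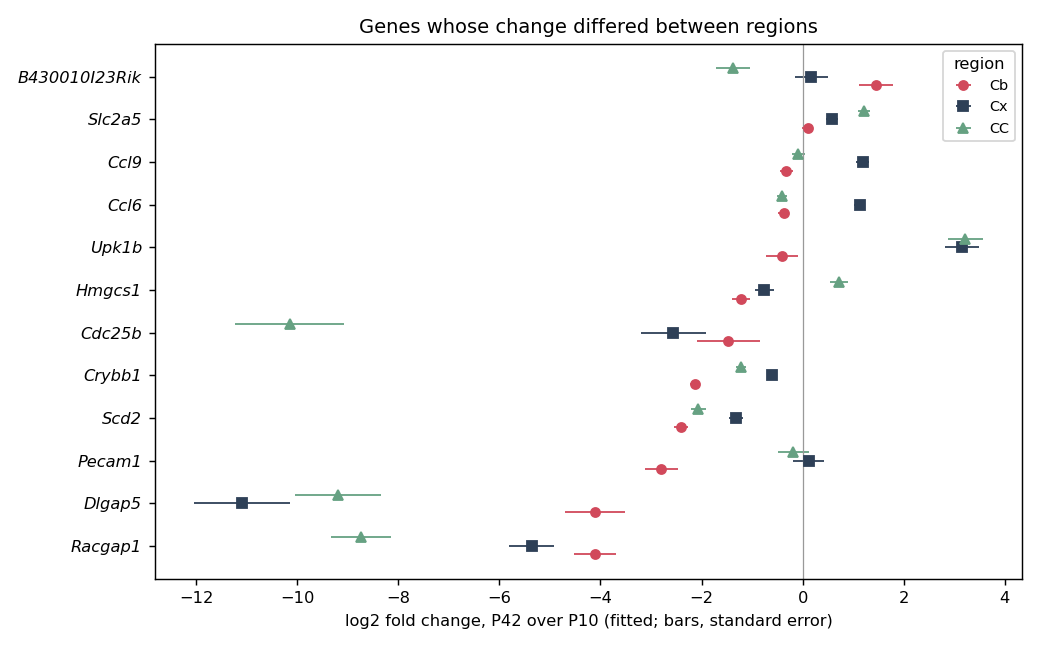
Log2 fold change from P10 to P42 in microglia of the cerebellum, the cortex and the corpus callosum, with bars of 1 standard error, for genes whose change differed between the cerebellum and another region in the full fit and without each library in turn. Crybb1 and Pecam1 have their lowest value in the cerebellum, and Upk1b rises in the cortex and the corpus callosum. The difference of Crybb1 was called against the cortex only.

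The change with age was also compared between the sexes, with 2 libraries of each sex at each age. No gene was called for a difference in change between males and females (0.0% of the genes tested, edgeR quasi-likelihood test). In that test 856 of the 20917 genes had an unadjusted p under 0.05. That is a share below 0.05, the share expected where no gene differs. Limma-voom called 1 gene and DESeq2 2. With no filter beyond genes without reads, the edgeR test called 48. Within males alone 389 genes were called and within females alone 353, with fewer libraries behind each. With 2 libraries of each sex at each age the precision is limited, and a sex difference is not shown to be absent.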

How the data were processed

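The authors deposited 1 table of raw counts per gene for 33 libraries, in whole reads with no normalization. Per the labels and the study's methods, reads were demultiplexed with CASAVA 1.8.2 and mapped to GRCm38 with STAR 2.5.2b, and counted per gene with featureCounts 1.6.2, leaving out reads that mapped to several places or to several genes. All 33 columns were matched to a sample by name, and 0 were left unassigned. Of 48679 rows, 92 spike-in rows were set aside. Of the 48587 genes, 17212 without a read and 10458 with the lowest summed counts (33.3% of those with reads, at most 26 reads over all libraries) were removed, which left 20917. The counts were fitted in edgeR 4.0.16 (R 4.3.3) with TMM factors and the robust quasi-likelihood model over 9 groups of region and age, with Benjamini-Hochberg adjustment over all genes tested. Differences between regions and between sexes were tested as interaction contrasts. Totals of 28692397 to 58065163 reads make 3 reads equal to 0.0523 to 0.103 CPM, and PCR duplicates were not marked, so counting error understates the spread.

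Genes were named by rule: the 10 largest called increases and decreases with at least 10 CPM at one age and no overlap, up to 3 called members per list and direction, the 2 most abundant members of a list, genes named in the study's text, up to 3 per direction in each test of a difference, and cell type markers. Some genes that meet the rule are not reported here. The members and lists were chosen with earlier results of these data known. Alternatives were limma-voom (limma 3.58.1), DESeq2 1.42.0, RLE factors, other filters, a covariate for sex, a block for the replicate number, the 8 cerebellar libraries alone and leaving out each library. The procedure was tested on simulated data, and no result of that test is used here. Promoters came from RefSeq (GRCm38.p6), for 12094 of the genes tested.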

Additional observations from a re-analysis of the deposited data

Results flagged for a closer look

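In groups of 4 libraries, 1 library was set apart from the other 3 by a gap above Dixon's 95% critical value in 23 of 262 group and measure pairs tested, where chance gives about 1 in 20. Of these, 2 were measures of the library itself. Cb P10 replicate 2 had the highest total, 58065163 reads, and Cb P42 replicate 3 held 170 spike-in reads. The outlying gene levels in Cb P10 replicate 1 were 17.1 CPM for Il7r. Cb P10 replicate 2 stood apart with 2061 CPM for Ifngr1, 589.6 CPM for Tmem173, 3.52 CPM for Cybb and 18.7 CPM for Pde2a. For Cb P10 replicate 3 the levels set apart were 6.95 CPM for Lgals3, 19.5 CPM for Cmklr1 and 3.58 CPM for Meg3. In Cb P10 replicate 4 the gap was seen at 4936 CPM for Grn, 11.7 CPM for Col27a1 and 11.8 CPM for Plac8. The outlying gene levels in Cb P42 replicate 1 were 30.2 CPM for Pdgfa, 154 CPM for Nfkbia and 74.8 CPM for Il7r. Cb P42 replicate 2 stood apart with 8.68 CPM for F13a1, 4.53 CPM for Cd36, 17.2 CPM for Fos and 501 CPM for Klf6. For Cb P42 replicate 3 the levels set apart were 126 CPM for Myc. In Cb P42 replicate 4 the gap was seen at 52.2 CPM for Scarb1 and 6245 CPM for Tmem119.

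The change from P10 to P42 differed between regions by the interaction test of edgeR for the following named genes, given as the log2 fold change in the cerebellum minus that in the other region. Against the cortex the cerebellar value was higher by 6.99 for Dlgap5, 5.54 for Casc5, 1.07 for Igfbp4, 1.18 for Tgfbi, 1.07 for Tlr2, 1.04 for Il17ra, 1.83 for Bbc3, 4.32 for Cybb, 5.74 for Dna2 and 5.50 for Mki67. It was lower than in the cortex, with differences of -1.24 for Abca1, -1.52 for Crybb1, -1.50 for Ccl6, -1.51 for Ccl9, -1.02 for Ldhb, -2.91 for Pecam1, -3.56 for Upk1b, -3.93 for Pde2a, -3.00 for Nbl1 and -1.09 for Scd2. Against the corpus callosum the higher values were 4.63 for Racgap1, 8.67 for Cdc25b and 2.82 for B430010I23Rik. Those lower than in the corpus callosum were -1.12 for Slc2a5, -2.61 for Pecam1, -3.62 for Upk1b, -2.55 for Il7r and -1.94 for Hmgcs1. Their standard errors, adjusted p-values and behaviour without single libraries stand beside the levels in the report. The differences of Cdc25b, Dlgap5 and Mki67 were fitted against P42 libraries at or under the detection limit and are not exact sizes.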

How the results depend on the processing

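The 688 calls between the ages became 1045 with limma-voom and 1045 with DESeq2, with 416 and 404 in place of 240 genes higher at P42, and 596 to 651 when 1 cerebellar library was left out (188 to 237 higher and 402 to 427 lower). The share of higher genes among the calls stayed between 31.3 and 41.0% over all settings. Calls for a difference from the cortex (54) became 166 with DESeq2, 32 to 43 without 1 cerebellar library and 33 to 50 without 1 cortical library. Those for a difference from the corpus callosum (26) became 42 with limma-voom, 269 with DESeq2, 15 to 24 without 1 cerebellar library and 21 to 39 without 1 callosal library. The 0 calls for a difference between sexes became 1 with limma-voom, 2 with DESeq2, 48 with no filter beyond genes without reads and 0 to 1 without 1 library. Leaving out cortical and callosal libraries was chosen after seeing the data, and the cause of the other shifts was not tested. With the replicate block 676 genes were called over all libraries, and 571 against 720 with the 8 cerebellar libraries alone. Between Cb P10 and Cb P42 replicate numbers did not pair the samples. Deviations of same-numbered libraries correlated at 0.015, 0.057, 0.062 and 0.024 over 9335 genes, and not every library correlated best with its own number. Same-numbered libraries of different regions at one age, which have the same sex label, were not compared, so a tie between them was not tested. With the replicate block over all 33 libraries 53 genes were called for a difference from the cortex and 22 from the corpus callosum.

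Of the 139 genes named with a test, 100 were called, and 69 of these kept their direction and call in every setting that gave them an adjusted p. DESeq2 gave none for Pbk and Ube2c. None reversed. Limma-voom lost Apoe, Spp1 and Fabp5. For Apoe its precision weights ran from 42.7 to 67800000 over libraries. The replicate block with the 8 cerebellar libraries ended 10 of the 100 calls (Dlgap5, Fads2, Gas7, Cfb, Bbc3, Ripk3, Cdh5, Fasn, Il15 and Meg3). That fit was read for single genes after seeing the data. Of 325 list medians compared, 3 moved by more than the spread, to -7.27 for mitosis with limma-voom, 0.07 for apoptosis without Cb P10 replicate 3 and 0.04 for the purinergic list without Cb P10 replicate 1. The sign changed in 11, all of the priming list (between 0.00 and 0.19) or the glycolysis list (between -0.11 and 0.00), whose medians lie near 0. Genes under about 0.1 CPM at one age lie at the limit of the depth, and their folds are bounds only.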
